A study of Mus musculus with 4 samples.

Results

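Cathepsins were examined in whole J558 allografts by bulk RNA sequencing. J558 is a mouse plasmacytoma line, grown here under the skin of the right flank of female BALB/c mice. Mice received 0.5% methylcellulose as vehicle (Vehicle-1 and Vehicle-2) or TAK-931, an inhibitor of the replication kinase CDC7, by mouth at 60 mg/kg once daily, and tumors were taken on day 6 (n = 2 per group). The labels call the cells B lymphocytes, but a whole tumor also holds host cells, and each library is 1 tumor. The study took Vehicle-1 and TAK-931-1 as the representative tumors for its own bulk comparison. The 10 members, chosen by name as cathepsins of phagocytes, lymphocytes and tumor cells, were Ctsa, Ctsb, Ctsc, Ctsd, Ctsh, Ctsk, Ctsl, Ctss, Ctsw and Ctsz, out of 24421 genes in the tables. All 10 passed the filter on low counts, as did 13669 genes in all.

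Cathepsins are proteases of the endosome and lysosome. Most are made as inactive precursors, carried to the lysosome by mannose-6-phosphate receptors, and activated by removal of a propeptide at low pH. Macrophages and dendritic cells are rich in them and use them to degrade engulfed protein and to prepare peptides for MHC class II. Cathepsins B, C, H, K, L, S, W and Z are cysteine proteases, cathepsin D is an aspartic protease, and cathepsin A is a serine carboxypeptidase.

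By the deposited gene models (mm10), the members are spread over 7 chromosomes. They are Ctsa (chr2:164832872-164841032, plus strand), Ctsb (chr14:63122462-63145923, plus strand), Ctsc (chr7:88278093-88310875, plus strand), Ctsd (chr7:142375916-142387870, minus strand), Ctsh (chr9:90054267-90076095, plus strand), Ctsk (chr3:95499210-95509387, plus strand), Ctsl (chr13:64363214-64370306, minus strand), Ctss (chr3:95526786-95556405, plus strand), Ctsw (chr19:5465240-5468498, minus strand) and Ctsz (chr2:174427494-174438992, minus strand). Ctsk and Ctss lie near each other on the same strand of chromosome 3.

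Promoter sequences (250 bases before to 50 after a start site, RefSeq, GRCm38.p6) were found for 7 of the 10 genes, in 8 windows. The 3 given here belong to the genes whose windows held the most matches to the motifs searched: the E-box core CACGTG, which lies within the element bound by the lysosomal regulator TFEB, and 2 sequences read by blood-cell factors, GAGGAAGT (PU.1) and a pair of GAAA separated by 2 bases of any kind (interferon-regulatory factors). Both strands were searched, and capitals mark the matches. The order is Ctsa (chr2:164833523-164833822, plus strand), Ctsd (chr7:142387778-142388077, minus strand) and Ctss (chr3:95526536-95526835, plus strand).
Ctsa: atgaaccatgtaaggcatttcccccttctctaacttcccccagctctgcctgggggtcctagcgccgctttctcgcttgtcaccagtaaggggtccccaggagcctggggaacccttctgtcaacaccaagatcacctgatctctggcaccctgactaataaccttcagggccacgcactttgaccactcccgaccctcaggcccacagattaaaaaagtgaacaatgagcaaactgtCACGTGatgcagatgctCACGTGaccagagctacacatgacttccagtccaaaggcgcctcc
Ctsd: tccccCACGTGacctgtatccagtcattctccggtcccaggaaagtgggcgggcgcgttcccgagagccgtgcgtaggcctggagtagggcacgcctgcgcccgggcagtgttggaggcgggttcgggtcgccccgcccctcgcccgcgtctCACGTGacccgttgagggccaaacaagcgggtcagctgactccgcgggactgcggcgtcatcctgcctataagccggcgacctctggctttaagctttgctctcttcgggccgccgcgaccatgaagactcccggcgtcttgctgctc
Ctss: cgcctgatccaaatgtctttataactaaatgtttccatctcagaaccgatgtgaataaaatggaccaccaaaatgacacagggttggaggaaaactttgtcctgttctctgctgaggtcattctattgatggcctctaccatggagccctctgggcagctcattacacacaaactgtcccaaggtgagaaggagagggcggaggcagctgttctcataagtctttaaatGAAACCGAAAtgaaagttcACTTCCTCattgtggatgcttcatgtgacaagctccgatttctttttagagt
In the Ctsa window shown, the matches to CACGTG began 12 bases before and 5 bases after its start site. The other Ctsa window (chr2:164832622-164832921, plus strand), at the start of the deposited gene model, held no such match. In Ctsd the matches to CACGTG began 245 and 98 bases before the start site. Ctsl held a further match 236 bases before its start. CACGTG was present in 7.15% of all 32851 promoter windows, and the longer TCACGTGA, which contains it, in 0.974%, Ctsa and Ctsd among them. In Ctss, the GAAA pair began 21 bases and GAGGAAGT, on the other strand, 2 bases before the start. GAGGAAGT was also found in Ctsc, 151 bases before the start. The GAAA pair occurred in 3.44% and GAGGAAGT in 3.20% of all windows. TATAAA (13.6% of windows) was found in Ctss, and GGGCGG (35.7%) in Ctsc, Ctsd, Ctss and Ctsz. A match is a description of the letters and not a bound site.

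All 10 cathepsins were higher in both TAK-931-treated allografts than in both vehicle-treated allografts, and TAK-931-1 was the highest library for each (41.2% of all tested genes were highest there). Among all tested genes, 30.0% had such separated groups with TAK-931 higher, 32.7% had them with TAK-931 lower, and 25.1% had the full order of TAK-931-1 above TAK-931-2 above both vehicle libraries. The median log2 fold change was 2.40 over the cathepsins and 0.02 over all tested genes. None of the 10 passed an adjusted p of 0.05 in edgeR's quasi-likelihood test, and their adjusted p ran from 0.275 to 0.397. The same test called 0 genes overall (0.00%). At an unadjusted p under 0.05 there were 6 cathepsins, all higher, against 18.1% of all genes, or 11.6% counting only higher genes. Counts from the cathepsins made up 0.329% of all counts in Vehicle-1 (95% Wilson interval 0.327% to 0.332%) and 0.321% in Vehicle-2 (0.318% to 0.324%). The share was 1.74% in TAK-931-1 (1.73% to 1.74%), against 0.531% in TAK-931-2 (0.527% to 0.534%). These intervals cover counting error only, and are too narrow because both mates of a read pair appear to be counted.

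The size of the difference rested on TAK-931-1. The median fold of the vehicle mean was 8.90 in TAK-931-1, against 1.76 in TAK-931-2, over the 10 cathepsins, and 0.978 and 0.983 over all tested genes. The treated tumors also varied more over all genes. The biological coefficient of variation was 0.119 between the vehicle libraries, against 0.533 between the treated ones. Without TAK-931-1 the median log2 fold change of the cathepsins was 0.80 and 8 of the 10 passed an adjusted p of 0.05, against 28.7% of all genes. Without TAK-931-2 it was 3.11 and 10 of 10 passed, against 58.1% of all genes. In both of these fits the lone treated library was assumed to vary like the vehicle pair. DESeq2 on all 4 libraries called 7 cathepsins (Ctsb, Ctsc, Ctsd, Ctsh, Ctsk, Ctsl and Ctsw) and 10.2% of all genes. With the replicate number as a block in edgeR, 0 cathepsins and 1.05% of all genes were called. Depth was between 16487902 and 19589339 counts per library.

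**Figure D1:**
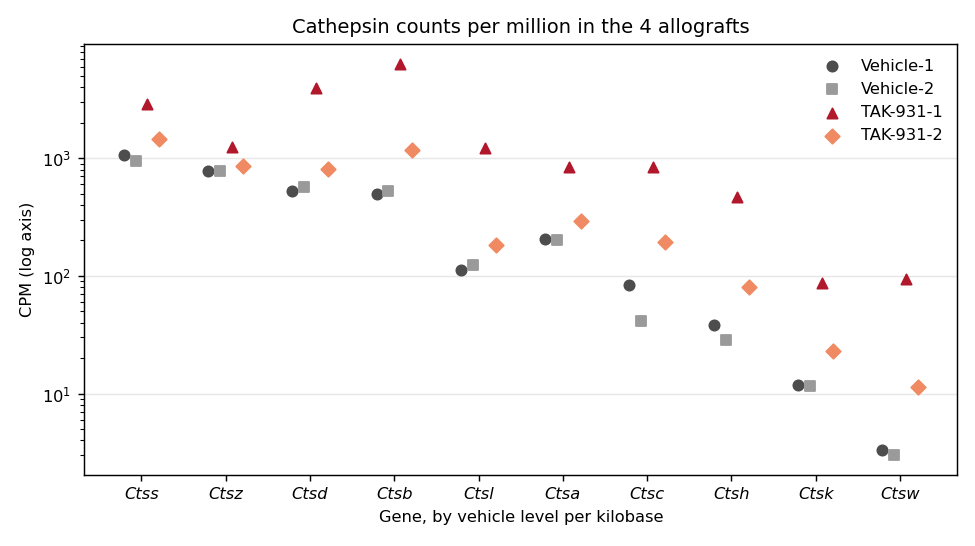
Level in CPM (counts scaled to a common library size, log axis) of the 10 cathepsin genes in each library, ordered by vehicle level per kilobase. The 2 vehicle libraries lie close together except for Ctsc, and TAK-931-1 (triangles) lies above TAK-931-2 (diamonds) for each gene.

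The endopeptidases of the cysteine class were led by Ctss, which encodes the cathepsin that trims the invariant chain from MHC class II in antigen-presenting cells. Ctss had 1057 and 945 CPM in Vehicle-1 and Vehicle-2, and 2873 CPM in TAK-931-1, but 1461 in TAK-931-2. It was thus 2.87-fold and 1.46-fold the vehicle mean, with a log2 fold change of 1.12 (SE 0.40) and an edgeR adjusted p of 0.275. It was the most abundant cathepsin per kilobase in every library, and its difference was the second smallest of the 10.

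Ctsl, whose protease acts in thymic epithelium and in lysosomal protein turnover, showed a wider gap between the treated tumors. Ctsl had 113 and 125 CPM in the vehicle libraries and 1223 CPM in TAK-931-1, but 183 in TAK-931-2. TAK-931-2 was thus nearer to the vehicle libraries than to TAK-931-1, as for every other cathepsin. The treated tumors differed 6.70-fold in Ctsl, less than the 8.24-fold of Ctsw. The log2 fold change was 2.57 (SE 0.96), or 0.62 when TAK-931-1 was left out.

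Ctsb, which encodes an enzyme with both endopeptidase and carboxypeptidase activity, had 497 and 522 CPM in the vehicle libraries and 6357 CPM in TAK-931-1, but 1179 in TAK-931-2. It carried more counts than any other cathepsin in TAK-931-1. The fitted log2 fold change was 2.89 (SE 0.88), and 1.21 without TAK-931-1.

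Ctsk, which is best known as the collagenase of osteoclasts and is also made by fibroblasts and macrophages, was the lowest or second lowest cathepsin per kilobase in every library. It had 11.9 and 11.6 CPM in the vehicle libraries and 87.8 CPM in TAK-931-1, but 23.2 in TAK-931-2, giving a log2 fold change of 2.24 (SE 0.70). Calcr, Dcstamp and Ocstamp, osteoclast markers, had at most 1, 4 and 34 counts in any library, and Oscar at most 16. Of 7 osteoclast markers, 5 were tested, 4 of them were higher in both treated tumors (30.0% of all genes), and the median log2 fold change was 2.49, or 0.79 without TAK-931-1. Acp5 and Atp6v0d2 were 4.99-fold and 162-fold the mean of vehicle in TAK-931-1, against 1.72-fold and 9.56-fold in TAK-931-2.

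The exopeptidases differed among themselves. Ctsc encodes the dipeptidyl peptidase that activates granzymes and other granule proteases. It was the cathepsin with the widest relative spread between the vehicle libraries (2.03-fold). It had 83.4 CPM in Vehicle-1, 41.0 CPM in Vehicle-2, 835 CPM in TAK-931-1 but 193 in TAK-931-2, and the groups did not overlap. Its log2 fold change of 3.05 (SE 0.87) was 3.64 without Vehicle-1 and 2.59 without Vehicle-2, and without TAK-931-1 it was 1.63 (SE 0.72) with an edgeR adjusted p of 0.352.

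Ctsh, an aminopeptidase gene, had 37.9 and 28.4 CPM in the vehicle libraries and 465 CPM in TAK-931-1, but 80.9 in TAK-931-2. The fitted log2 fold change was 3.04 (SE 0.92). Ctsz, a carboxypeptidase gene, differed least of the 10. It had 783 and 773 CPM in the vehicle libraries and 1247 CPM in TAK-931-1, but 863 in TAK-931-2. TAK-931-2 was 1.11-fold the vehicle mean, and the log2 fold change was 0.44 (SE 0.28) with an edgeR adjusted p of 0.397.

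Ctsw, a cysteine protease gene of cytotoxic lymphocytes, had the largest relative difference and, in vehicle tumors, the lowest level. It had 56 and 50 counts in the vehicle libraries and 1771 in TAK-931-1, but 194 in TAK-931-2 (vehicle mean 3.16 CPM). The treated tumors were thus 29.5-fold and 3.58-fold the vehicle mean, and differed 8.24-fold from each other. The log2 fold change was 4.05 (SE 1.13), or 1.84 (SE 0.35) without TAK-931-1.

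Of the members outside the cysteine class, Ctsd encodes the main aspartic protease of the lysosome. It had 531 and 564 CPM in the vehicle libraries and 3904 CPM in TAK-931-1, but 816 in TAK-931-2, with a log2 fold change of 2.11 (SE 0.80). Ctsa encodes the carboxypeptidase that protects beta-galactosidase and neuraminidase within the lysosome. It had 205 and 203 CPM in the vehicle libraries and 835 CPM in TAK-931-1, but 295 in TAK-931-2, giving a log2 fold change of 1.47 (SE 0.56). Its partner genes were nearer to the vehicle level. Glb1 (beta-galactosidase) was 0.957-fold and 1.20-fold the mean of vehicle in the treated tumors, and Neu1 (neuraminidase) 1.38-fold and 0.931-fold. Strand use in counting was not stated, and some exons are shared with genes of the opposite strand. Ctsa shares 495 of 3626 exon bases with Pltp and 325 with Neurl2, Ctsb shares 773 of 4743 with Fdft1, and Ctsz shares 9 of 1393 with Nelfcd. Pltp had 251 and 307 counts in the vehicle libraries and 5034 in TAK-931-1, but 1192 in TAK-931-2, and its part in the value of Ctsa was not tested.

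**Figure D2:**
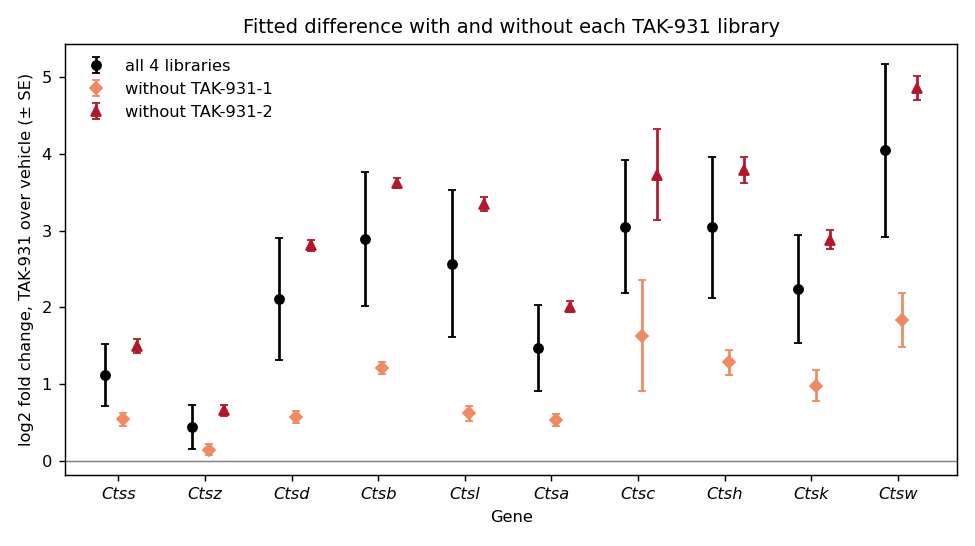
Fitted log2 fold change of TAK-931 over vehicle (± SE) for each cathepsin with all 4 libraries, without TAK-931-1 and without TAK-931-2. The values without TAK-931-1 run from 0.15 for Ctsz to 1.84 for Ctsw, below those with all libraries.

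Levels of different genes were compared as CPM per kilobase of exon. In vehicle tumors the mean level ran in the order Ctss (736), Ctsz (558.5), Ctsd (280), Ctsb (107), Ctsl (60.1), Ctsa (56.3), Ctsc (25.2), Ctsh (20.4), Ctsk (7.42) and Ctsw (2.56). Ctsl and Ctsa differed by less than the spread between replicates, and so did Ctsc and Ctsh. TAK-931-2 kept this order. In TAK-931-1 it was Ctss (2113), Ctsd (1998), Ctsb (1340), Ctsz (895), Ctsl (621), Ctsc (338), Ctsh (286), Ctsa (230), Ctsw (75.7) and Ctsk (55.5), so Ctsz, Ctsa and Ctsk stood lower in the order and Ctsd, Ctsb, Ctsc, Ctsh and Ctsw higher.

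The composition of the cathepsin pool differed accordingly. Ctss and Ctsz made up 41.0% and 29.6% of the summed level in Vehicle-1 and 38.3% and 30.6% in Vehicle-2. They made up 40.0% and 23.1% in TAK-931-2, and 26.6% and 11.3% in TAK-931-1. Ctsb had 5.52% and 6.07% in the vehicle libraries, 9.26% in TAK-931-2 and 16.9% in TAK-931-1. Ctsd had 14.3% and 15.9% in the vehicle libraries, 15.6% in TAK-931-2 and 25.1% in TAK-931-1. The share of Ctsz was thus lower and that of Ctsb higher in both treated tumors, while those of Ctss and Ctsd in TAK-931-2 lay within the vehicle range.

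**Figure D3:**
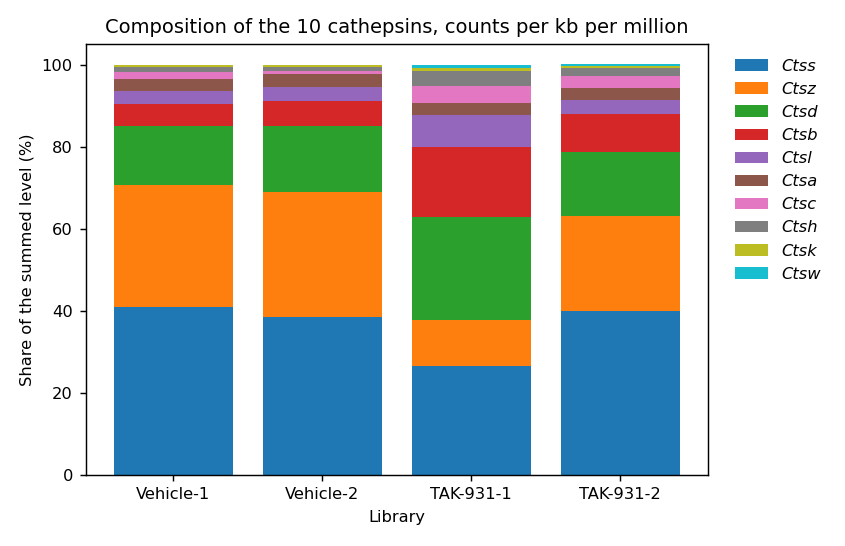
Share (%) of each cathepsin in the summed level of the 10 genes (CPM per kilobase of exon) in each library. Ctss and Ctsz fill most of the vehicle and TAK-931-2 bars, and Ctsd and Ctsb take a larger part of the TAK-931-1 bar.

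Macrophage, T cell and fibroblast markers were summed in the same libraries, and each sum was highest in TAK-931-1 and above vehicle in TAK-931-2. Summed endothelial markers lay within the vehicle range in TAK-931-2, and skeletal muscle and adipocyte markers below it. The summed level of 14 macrophage markers was 676 and 568 CPM in the vehicle libraries and 9863 CPM in TAK-931-1, but 1759 in TAK-931-2, and 12 of the 14 genes were higher in both treated tumors than in both vehicle tumors (30.0% of all genes). Cd163 and Cd14 were the exceptions, each highest in TAK-931-1 and lowest in TAK-931-2. The summed level of 10 T cell markers was 49.4 to 62.7 CPM in vehicle and 1234 CPM in TAK-931-1, but 97.4 in TAK-931-2. That of 8 fibroblast markers was 1884 to 2141 CPM in vehicle and 14810 CPM in TAK-931-1, but 5106 in TAK-931-2. The 8 plasma cell and J558 markers were each lowest in TAK-931-1, and 3 of them were lower in both treated tumors than in both vehicle tumors (32.7% of all genes). Their sum, led by Jchain, was 9717 to 10286 CPM in vehicle and 4801 CPM in TAK-931-1, but 13646 in TAK-931-2. In whole tumors, fewer cells of a type and less RNA per cell cannot be told apart, and the part of any cell type in the cathepsin values was not tested.

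Each cathepsin was therefore also set beside the summed macrophage level of its own library. Ctsh was slightly lower in treated tumors on this scale, with 0.0562 and 0.0499 CPM per macrophage CPM in the vehicle libraries and 0.0471 in TAK-931-1, but 0.0460 in TAK-931-2. Ctsc (0.123, 0.0721, 0.0847 and 0.110, in the same order) was the only member whose groups overlapped. Ctsb was a little lower in treated tumors, with 0.735 and 0.918 in vehicle against 0.645 and 0.671. Ctsz was far lower, with 1.16 and 1.36 in vehicle, 0.126 in TAK-931-1 but 0.491 in TAK-931-2, and Ctss was lower as well (1.56 and 1.66 against 0.291 and 0.831). In all, 8 members were below both vehicle libraries in both treated libraries and 1, Ctsw, was above them. Over all tested genes, 87.6% were below and 1.93% above on this scale. Per summed fibroblast level, 3 members were below, 1 above and 6 overlapping (83.1% of all genes below, 3.47% above). Per summed plasma cell and J558 level, 8 were above and 2 overlapping (19.9% of all genes above). Per summed T cell level, 4 members were below and 5 overlapping (76.6% of all genes below, 1.51% above). Ctsw was also the only member above both vehicle libraries on the T cell scale. It had 0.0530 and 0.0607 in vehicle, 0.0756 in TAK-931-1 but 0.116 in TAK-931-2. These ratios were not tested.

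**Figure D4:**
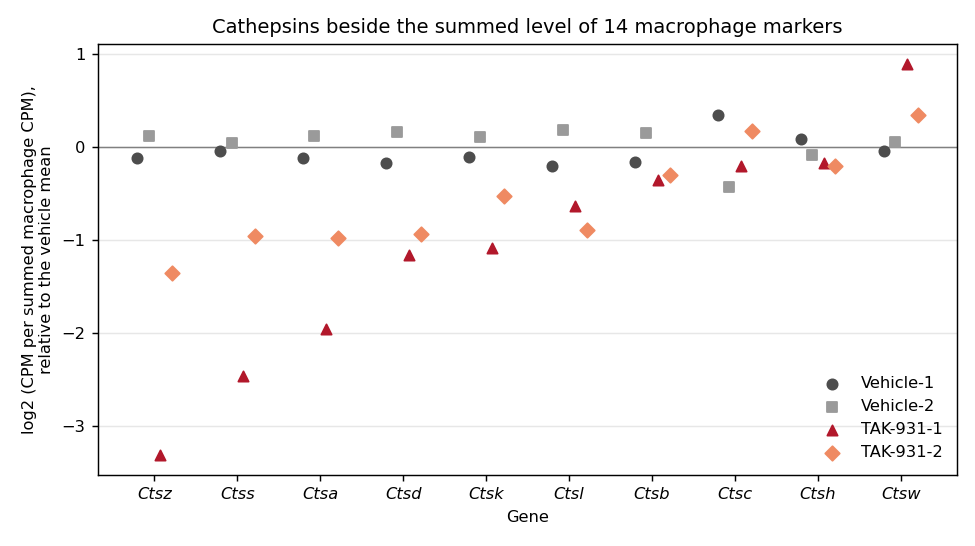
Level of each cathepsin divided by the summed CPM of 14 macrophage markers in the same library, as log2 relative to the vehicle mean. Ctsz, Ctss and Ctsa lie lowest in TAK-931-1, Ctsb, Ctsc and Ctsh lie near 0, and Ctsw lies above 0 in both treated libraries.

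Genes from the lists with the most similar profile were sought for each cathepsin among 158 candidates, by the Euclidean distance of centered log2 CPM over the 4 libraries, which is a description with no test. Ctsh was nearest to Csf1r (0.191) and Adgre1 (0.195), markers of macrophages, and Ctsc to Fcgr1 (0.290) and C1qa (0.384). Ctsw was nearest to Csf3r (0.186), a myeloid growth-factor receptor gene, and then Lyz2 (0.415). Ctsb was nearest to Hexa (0.101) and Dcn (0.148), Ctsk to Grn (0.0767), Ctsl to Cd63 (0.216) and Psap (0.301), and Ctsd to Scarb2 (0.187) and Gnptab (0.228). Ctsa was nearest to Npc2 (0.0796) and Kdr (0.154), Ctss to Man2b1 (0.167) and Lamp2 (0.191), and Ctsz to Atp6v0a2 (0.0886) and Fuca1 (0.0922).

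Cathepsins outside the member list had no common direction with all 4 libraries. Of 13, 3 passed the filter and 9 had 0 counts in all libraries. The median log2 fold change of the 3 was −0.11, or 0.42 without TAK-931-1, where all 3 were higher. Ctse, an aspartic protease gene of endosomes, had 348 and 323 CPM in the vehicle libraries and 159 CPM in TAK-931-1, but 450 in TAK-931-2, so TAK-931-1 was the lowest library and TAK-931-2 the highest. Its log2 fold change was −0.14 (SE 0.55). Ctso, a cysteine cathepsin gene, showed the same order with smaller steps, at 0.736-fold the mean of vehicle in TAK-931-1, against 1.12-fold in TAK-931-2 (log2 fold change −0.11, SE 0.29). Ctsf was 5.06-fold and 1.77-fold, with a log2 fold change of 1.77 (SE 0.68). Ctsg, the neutrophil cathepsin gene, had 8 counts in TAK-931-1 and 0 in the other libraries, where 0 counts allow up to 6 counts (3 read pairs, since both mates appear to be counted), or 0.350 to 0.360 CPM.

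Among the cystatins, the inhibitors of cysteine cathepsins, 4 of 11 genes were tested and 3 were higher in both treated tumors (30.0% of all genes). Cst3, the secreted cystatin C, was the most abundant and was 2.53-fold the mean of vehicle in TAK-931-1, against 1.22-fold in TAK-931-2 (log2 fold change 0.91, SE 0.42). Cstb, the cytosolic inhibitor, was 2.76-fold and 1.13-fold (0.96, SE 0.48). Cst7, an inhibitor carried by cytotoxic lymphocytes and myeloid cells, stood out with 24 and 9 counts in the vehicle libraries and 859 in TAK-931-1, but 97 in TAK-931-2 (log2 fold change 4.69, SE 1.29, edgeR adjusted p 0.275). Cst6 had between 0 and 18 counts, and its log2 fold change was −0.32 (SE 1.85). No cystatin passed an adjusted p of 0.05 in edgeR with all 4 libraries, whereas DESeq2 called Cst7 (adjusted p 0.00024). Without TAK-931-1 edgeR called Cst3 (adjusted p 0.0244) and Cst7 (adjusted p 0.0195), and without TAK-931-2 it called Cst3, Cstb and Cst7. The shares of all genes called in these fits were 10.2%, 28.7% and 58.1%. The list median was 0.93 over the 4 tested genes. Without TAK-931-1 the filter kept 6 genes, so the median of −0.98 there is for another set. In that fit Cst3, Cstb and Cst7 were still positive (0.29, 0.17 and 2.52), and Cst6, with its few counts, was at −2.14.

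Of 14 granule proteases that cathepsin C matures, 11 were tested, and 9 were higher in both treated tumors (30.0% of all genes). Some of the 11, such as Gzmd and Gzmf, passed the filter only through the treated libraries and could only come out higher. The counts, medians and calls of this list are therefore descriptions and not support. The median log2 fold change was 5.83, or 5.48 with Gzmf at its bound, and 2.32 without TAK-931-1. In edgeR with all 4 libraries 0 passed an adjusted p of 0.05, whereas DESeq2 called 7 of the 11 (10.2% of all genes). Without TAK-931-1 edgeR called 5 of 10 tested (28.7% of all genes), and without TAK-931-2 it called 11 of 13 (58.1%). Gzmb, the most abundant, had 126 and 28 counts in the vehicle libraries and 6263 in TAK-931-1, but 509 in TAK-931-2. Gzma had 210 and 115 counts in vehicle, 2155 in TAK-931-1 but 638 in TAK-931-2, and Gzmd 6 and 0 against 1644 and 84. Gzmf had 0 counts in both vehicle libraries and 594 and 12 in the treated ones, at least 87.5-fold and 1.96-fold higher than a floor of 6 counts (3 read pairs) per library. Gzmm was the lowest of the list (log2 fold change −0.32, SE 0.70). The neutrophil protease gene Elane had 0 counts in all 4 libraries.

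In the remaining lysosomal lists the median log2 fold change was below the 2.40 of the cathepsins. Over all tested genes, 30.0% were higher in both treated tumors than in both vehicle tumors and 32.7% lower. Without TAK-931-1 the medians were 0.31 for the hydrolases, 0.31 for sorting, 0.07 for the membrane, −0.03 for the proton pump and 0.35 for the regulators. Of 38 other hydrolases and activators, 33 had a positive log2 fold change against 51.0% of all genes, 23 were higher in both treated tumors, 3 were lower in both, and the median was 0.64. Psap, the saposin precursor, was the most abundant and was 9.86-fold the mean of vehicle in TAK-931-1, against 1.73-fold in TAK-931-2. Hexa, for a subunit of beta-hexosaminidase, had the largest difference (log2 fold change 2.92, SE 0.91). Gusb (0.588-fold and 0.983-fold), Scpep1 (0.838-fold and 1.07-fold) and Smpd1 (0.539-fold and 0.927-fold, log2 fold change −0.45, SE 0.33) were not higher in TAK-931-1. Of 12 genes for maturation and sorting, 8 were higher and 2 lower in both treated tumors, with a median of 0.79. Lgmn, the legumain protease that processes cathepsin precursors, was 1.88-fold and 1.22-fold the vehicle mean, Grn, for progranulin, 7.07-fold and 1.92-fold, and the mannose-6-phosphate receptor gene M6pr 2.36-fold and 1.24-fold. Sorl1, a sorting receptor gene, was the largest of this list (log2 fold change 3.25, SE 0.95) and Nagpa, for the uncovering enzyme of the mannose-6-phosphate tag, the lowest (−0.56, SE 0.31).

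Lysosomal membrane genes had a median log2 fold change of 0.61 over 16 genes, with 9 higher and 1 lower in both treated tumors. Laptm4a, the most abundant, was 1.11-fold and 0.909-fold the vehicle mean, whereas Lamp1 was 3.81-fold and 1.15-fold. Cd63 was the largest of the list (9.01-fold and 1.63-fold, log2 fold change 2.41, SE 0.87) and Tmem192 the lowest (0.742-fold in both). The proton pump that acidifies the lysosome had the smallest median, 0.26 over 16 genes. Atp6v0e, Atp6v0b and Atp6v1f, its most abundant tested subunits, were 1.19-fold, 1.78-fold and 1.49-fold the mean of vehicle in TAK-931-1, against 0.914-fold, 1.01-fold and 0.904-fold in TAK-931-2. Atp6v0d2, an isoform of macrophages and osteoclasts, had 8 and 10 counts in the vehicle libraries and 1652 in TAK-931-1, but 88 in TAK-931-2 (log2 fold change 6.40, SE 1.64). Atp6v1h was the lowest (−0.66, SE 0.21). Of 8 regulators, 6 were higher in both treated tumors. Rragc, Zkscan3 and Flcn, the most abundant per kilobase, were 2.34-fold, 1.63-fold and 2.15-fold in TAK-931-1, against 1.23-fold, 1.33-fold and 1.36-fold in TAK-931-2. Mitf had the largest log2 fold change (3.08, SE 1.16) and Mtor the lowest (−0.01, SE 0.28), and Tfeb was 2.08-fold and 0.928-fold. None of these genes passed an adjusted p of 0.05 in edgeR with all 4 libraries. DESeq2 called 8 of the hydrolases, 4 of the sorting genes, 2 of the membrane genes, 1 of the pump genes and 1 of the regulators, all higher, against 10.2% of all genes.

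**Figure D5:**
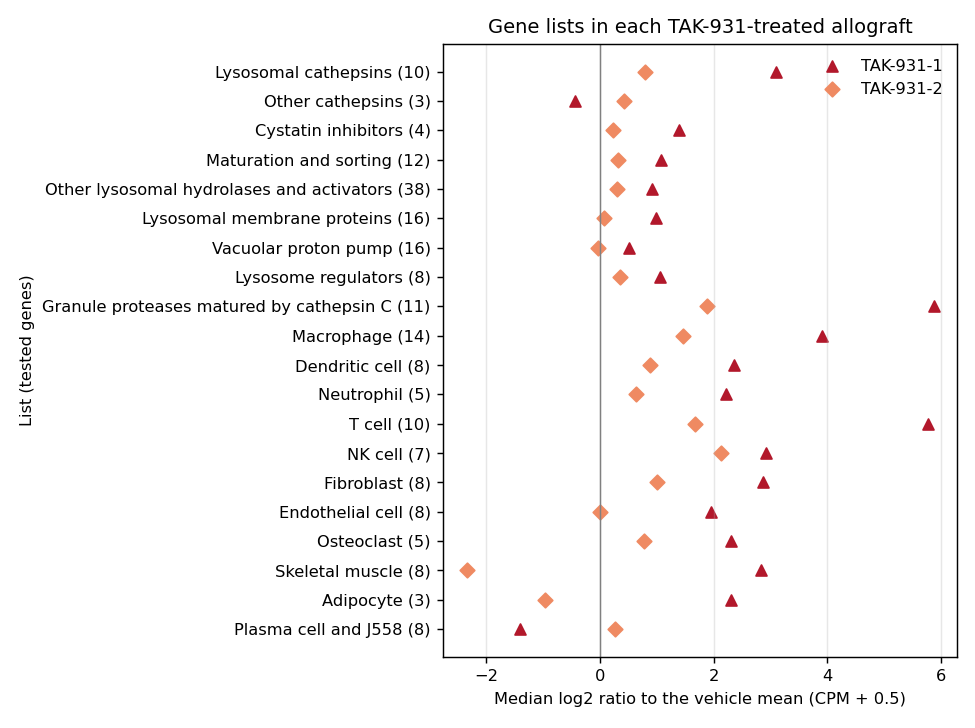
Median log2 ratio to the vehicle mean (CPM + 0.5) of each gene list in TAK-931-1 and TAK-931-2, with the number of tested genes in brackets. The 10 cathepsins lie at 3.11 and 0.79, between the other lysosomal lists and the T cell and macrophage markers.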

How the data were processed

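RNA from 4 whole J558 allografts was sequenced, with 2 libraries per group named by the labels. For each library, the authors deposited raw counts of reads by gene. The submitters' processing notes name STAR 2.6.1c and featureCounts and the build mm10, and the headers name uniquely placed reads as the input. The strand setting and annotation release are not given in the sources used here. A second column of another kind that the authors deposited, Length, is the exon length in bases. Total counts were between 16487902 and 19589339. Odd values made up 17.9% to 23.9% of low counts (1 to 20), so both mates of a read pair appear to be counted singly, and counting intervals are too narrow. The limit for a count of 0 was set at 6 counts (3 read pairs) after seeing this.

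Genes were kept with filterByExpr (minimum count 10) of edgeR 4.0.16 in R 4.3.3 and scaled by TMM. TAK-931 was compared with vehicle by the robust quasi-likelihood test, two-sided, with Benjamini-Hochberg adjustment over all 13669 genes at 0.05. The SE is the log2 fold change divided by the square root of F. CPM uses TMM-scaled library sizes, and the fold of the vehicle mean is a ratio of CPM with no pseudocount. List ratios and profile distances used log2(CPM + 0.5), the latter among genes with a mean log2 CPM over 3. An exact test of 2 against 2 libraries cannot go below a p of 0.333. Members, lists and tests were chosen with earlier results of these data known. Named genes were the members, the 3 most abundant and the 2 extreme tested genes of each pathway list, the nearest profiles, and, chosen after their values were seen, Ctsf, Ctsg, Neu1, Glb1, Pltp, Acp5, Calcr, Dcstamp, Ocstamp, Oscar, Cidec, S100a8, Mmp9, Cd163, Cd14, Tfeb and Elane. Marker lists are given as sums. The second nearest profile of Ctsk is not reported here. On simulated counts the test recovered changes well where libraries varied little and poorly at the common spread of all 4 libraries. The simulation gave both groups the same spread, whereas the treated libraries here varied more than the vehicle ones. Alternatives used DESeq2 1.42.0 and limma 3.58.1 (voom). Figures were drawn with matplotlib 3.10.9.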

Additional observations from a re-analysis of the deposited data

How the results depend on the processing

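All 10 cathepsins kept a positive log2 fold change in all 13 alternative fits. At an adjusted p of 0.05, 0 genes were called with size factors by median of ratios, with scaling by library size alone, no filter, at least 10 counts in every library, limma-voom, counts halved or no robust estimation, nor at 0.01 in the edgeR fit with all libraries. DESeq2 called 1389 genes and 7 cathepsins. The replicate block called 144 genes, 7 granule proteases and 0 cathepsins, with adjusted p from 0.0523 (Ctsc) to 0.621 (Ctsz). The deviations of same-numbered libraries correlated at 0.004 across genes. With 2 libraries per group, this value cannot show whether same-numbered libraries share more than a number. Leaving out a library gave between 0 and 8424 genes and between 0 and 10 cathepsins. Both counts were 0 without Vehicle-1 or Vehicle-2, 3996 and 8 without TAK-931-1, and 8424 and 10 without TAK-931-2. At an unadjusted p under 0.05 the number of cathepsins was 6 with all libraries, 3 with limma-voom and between 6 and 10 in the other fits. The number of genes was 1003 without Vehicle-1, 1019 without Vehicle-2, 5672 without TAK-931-1 and 9156 without TAK-931-2, against 2475. The cause of the differences between methods was not tested. Low genes, such as Ctsg and Cst6, rest on few counts, and which genes depth limits was not tested.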

Other observations

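Other host lists were also highest in TAK-931-1. The summed level of 8 dendritic cell markers was 24.2 to 29.3 CPM in vehicle and 306 CPM in TAK-931-1, but 66.7 in TAK-931-2, and that of 8 NK cell markers was 18.3 to 33.4, 241 and 57.4 CPM. The neutrophil markers had 7.59 to 9.83 CPM in vehicle and 144 CPM in TAK-931-1, against 19.1 in TAK-931-2, of which Csf3r made up 15.1 CPM. Csf3r and Mmp9, 2 of the 5 tested, were higher in both treated tumors (30.0% of all genes), and S100a8 had 0 counts in TAK-931-2. The endothelial markers had 252 to 280 CPM in vehicle and 932 CPM in TAK-931-1, but 265 in TAK-931-2, and the osteoclast list had at most 47.9 CPM in vehicle, against 324 and 84.3 CPM. Skeletal muscle markers, 95.4 to 97.1 CPM in vehicle, were at 751 CPM in TAK-931-1 but 14.4 in TAK-931-2, and adipocyte markers, 45.9 to 69.0 CPM in vehicle, at 289 and 28.9 CPM. The summed muscle and adipocyte levels were thus above vehicle in TAK-931-1 and below it in TAK-931-2, although Cidec, 1 of the 3 adipocyte genes tested, was below both vehicle tumors in both treated tumors.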
